A study of Mus musculus with 6 samples.

Results

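The 10 genes described here encode parts of the pre-B cell receptor and of the recombination machinery of developing B cells: *Vpreb1*, *Vpreb3*, *Igll1*, *Cd79a*, *Cd79b*, *Rag1*, *Rag2*, *Dntt*, *Il7r* and *Blnk*. They were chosen by name, for their known roles, among the 39179 mouse genes listed in the count files, and all 10 belong to the 15980 genes tested. Their RNA was measured in whole bone marrow of 3 *MxCDX2* mice and 3 control littermates. The *MxCDX2* mice carried *RsCDX2*, the coding sequence of the human homeobox gene *CDX2* placed in *Rosa26* behind a stop sequence that Cre removes, together with *Mx1Cre*, which drives the Cre recombinase from an interferon-inducible promoter. This promoter is active in many blood cells and in other interferon-responsive tissues, so recombination was not limited to a lymphoid cell type. Control mouse 1 carried *RsCDX2* alone, control mouse 2 carried *Mx1Cre* alone and control mouse 3 was wild type, so the spread among controls holds differences of genotype as well as differences between mice. All 6 mice, controls included, had been injected intraperitoneally 3 times, at an age of 3 months, with poly(I:C), a synthetic double-stranded RNA that elicits interferon, at 10 µg per g of body weight, and RNA was taken 6 weeks later.

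B cells assemble their immunoglobulin genes by V(D)J recombination. The RAG1 and RAG2 proteins cut the DNA between gene segments, and TdT, the product of *Dntt*, adds bases to the cut ends without a template. Once a heavy chain has been made, it reaches the surface of the pre-B cell together with a surrogate light chain, formed by VpreB and λ5 (*Igll1*), and with the signaling chains CD79A and CD79B, whereas BLNK is the adaptor that passes the signal on. The receptor for interleukin 7, of which *Il7r* encodes the α chain, sustains pro-B and pre-B cells in mouse bone marrow. *Rag1*, *Rag2*, *Dntt* and *Il7r* are also used by T cell progenitors, and *Cd79a*, *Cd79b* and *Blnk* remain on in mature B cells.

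Since these genes are known to share transcription factors, the DNA ahead of their start sites is shown for 5 of them: *Igll1* and *Cd79a*, which followed the pattern common to most of the 10 genes across the mice, and *Rag1*, *Rag2* and *Dntt*, which departed from it. The stretches come from the RefSeq promoter table (GRCm38.p6), which held 9 of the 10 genes (not *Cd79b*), and lie within the 250 bases before the start site, on the strand of the gene. The *Igll1* stretch is chr16:16863986-16864235 (minus strand), that of *Cd79a* chr7:24897247-24897380 (plus strand, from 250 to 117 bases before the start), that of *Rag1* chr2:101649533-101649782 (minus strand), that of *Rag2* chr2:101624462-101624711 (plus strand) and that of *Dntt* chr19:41029025-41029274 (plus strand). Capitals mark matches to any of the 7 motifs searched, on either strand.
Igll1: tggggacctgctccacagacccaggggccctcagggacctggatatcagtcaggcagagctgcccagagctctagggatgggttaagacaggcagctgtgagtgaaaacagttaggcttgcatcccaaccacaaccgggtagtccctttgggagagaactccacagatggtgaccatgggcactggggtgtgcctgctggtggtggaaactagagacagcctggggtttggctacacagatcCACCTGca
Cd79a: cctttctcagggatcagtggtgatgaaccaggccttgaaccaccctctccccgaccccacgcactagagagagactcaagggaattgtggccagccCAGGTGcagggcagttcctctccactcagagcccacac
Rag1: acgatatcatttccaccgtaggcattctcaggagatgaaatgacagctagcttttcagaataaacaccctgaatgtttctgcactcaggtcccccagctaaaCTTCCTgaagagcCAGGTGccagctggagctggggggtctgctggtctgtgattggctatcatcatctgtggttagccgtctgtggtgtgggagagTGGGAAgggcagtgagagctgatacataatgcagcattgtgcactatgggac
Rag2: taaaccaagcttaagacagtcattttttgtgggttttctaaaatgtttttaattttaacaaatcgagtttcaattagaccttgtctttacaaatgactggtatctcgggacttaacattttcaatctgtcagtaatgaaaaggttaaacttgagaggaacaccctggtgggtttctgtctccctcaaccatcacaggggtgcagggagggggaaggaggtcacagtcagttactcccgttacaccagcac
Dntt: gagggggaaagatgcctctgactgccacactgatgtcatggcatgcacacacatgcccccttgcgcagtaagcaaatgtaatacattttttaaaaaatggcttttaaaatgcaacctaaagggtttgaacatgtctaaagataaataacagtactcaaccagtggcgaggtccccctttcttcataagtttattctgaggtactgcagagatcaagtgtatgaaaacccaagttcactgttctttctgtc

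The 7 motifs were the letters CAGGTG (bound by E2A), CCCNNGGGA (EBF), GTAAACA (FOXO), TTTATNG (CDX), TTCNNNGAA (STAT), TGGGAA (Ikaros) and AGGAAG (ETS), and TGGGAA can share letters with CCCNNGGGA. Over the full 250 bases, CAGGTG stood in 5 of the 9 promoters (*Rag1*, *Cd79a*, *Igll1*, *Vpreb1* and *Blnk*) against 17.2% of all 32851 promoters in the table. AGGAAG stood in 6 of 9 (*Rag1*, *Cd79a*, *Vpreb3*, *Il7r*, *Vpreb1* and *Blnk*) against 29.5%, TGGGAA in 1 (*Rag1*) against 21.6%, and TTCNNNGAA in 1 (*Il7r*) against 7.02%. No match to the CDX letters was found in the 9 promoters, against 9.81% of all promoters, nor to the EBF letters (5.6%) or the FOXO letters (3.17%). The *Rag2* and *Dntt* stretches printed above held no match to the 7 motifs. These matches describe letters in a window and not bound sites.

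The libraries held between 38646101 and 49899650 reads counted on genes. *Cdx2*, on which reads of the human coding sequence could have been counted, had 4, 0 and 0 reads in the control mice (numbers 1, 2 and 3, in this order throughout) and 152, 155 and 183 reads in the *MxCDX2* mice, as their labels say. Normalized counts are read counts brought to a common library size with edgeR's TMM factors, and group values are means ± SD of 3 mice, whereas log2 fold changes (*MxCDX2* minus control) are given ± SE. A gene was said to have changed when edgeR's quasi-likelihood test gave an absolute log2 fold change above 1 and a Benjamini-Hochberg adjusted p below 0.05 over the 15980 genes.

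The mean level of each of the 10 genes was lower in *MxCDX2* than in control bone marrow, and in 6 of them the values of the groups did not overlap, with the *MxCDX2* mice on the lower side, as was the case for 20.7% of the genes tested. *Cd79a*, *Cd79b*, *Blnk* and *Il7r* fell past both thresholds, by 3.26-fold to 4.02-fold. The other 6 did not pass the test, and among them *Vpreb3*, *Rag1*, *Rag2* and *Dntt* had overlapping groups. By the same test 9.03% of the 15980 genes fell and 13.6% changed in either direction. The median log2 fold change was −1.68 over the 10 genes and 0.00208 over the genes tested. Since whole bone marrow was sequenced, fewer cells that express these genes and less of their RNA per cell cannot be told apart.

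**Figure D1:**
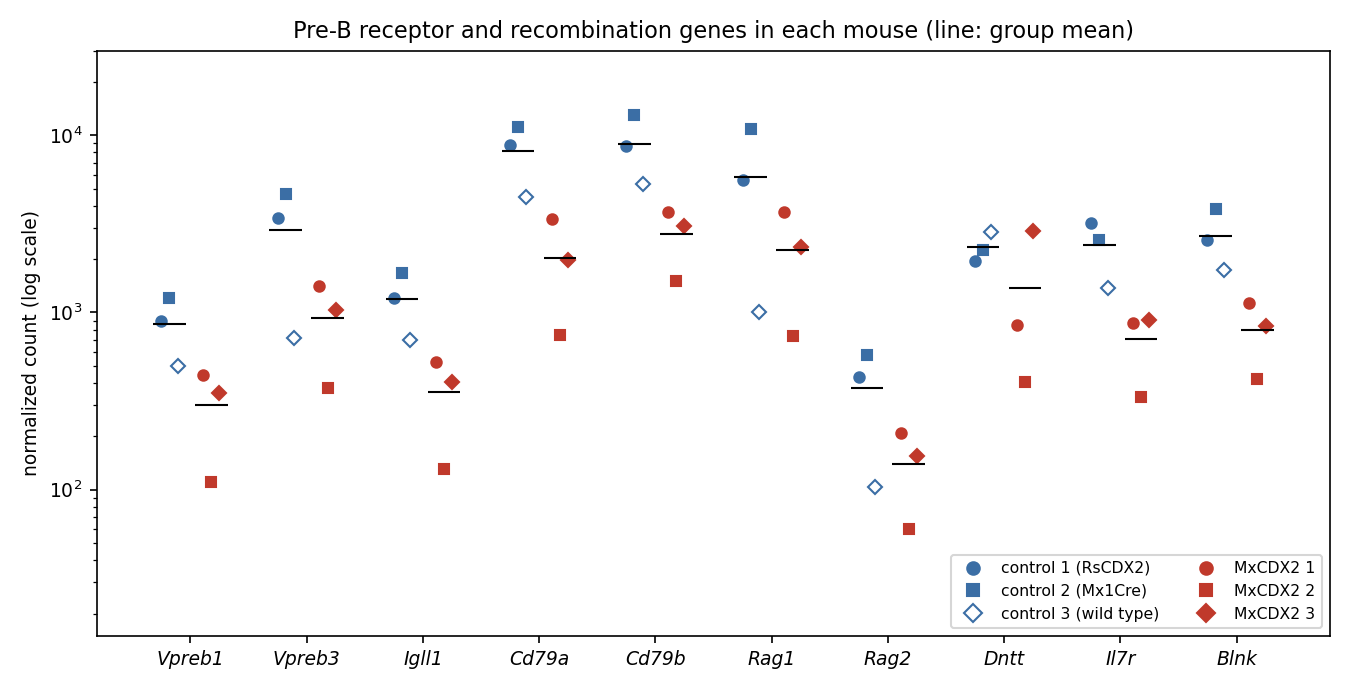
Normalized count (log scale) of each of the 10 genes in the 3 control mice (blue) and the 3 *MxCDX2* mice (red), 1 symbol per mouse, with the group mean as a horizontal line. *MxCDX2* mouse 2 (red square) is the lowest *MxCDX2* mouse for the 10 genes, and the wild-type control (open diamond) is the lowest control for 9 of them, *Dntt* being the exception.

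*Cd79a* (ENSMUSG00000003379, chr7:24897381-24902197, plus strand), which encodes one of the signaling chains shared by the pre-B and the mature B cell receptor, had 8847, 11168 and 4514 normalized counts in the control mice and 3372, 749 and 1976 in the *MxCDX2* mice. The groups did not overlap, the wild-type control came nearest to the *MxCDX2* mice, and *MxCDX2* mouse 2 stood well below the others. The mean was 8176 ± 3377 in control and 2032 ± 1312 in the *MxCDX2* group, which gave a log2 fold change of −2.01 ± 0.57 (SE, edgeR adjusted p = 0.0486), the largest fall among the 10 genes. Its partner *Cd79b* (ENSMUSG00000040592, chr11:106311341-106314762, minus strand) had 8716, 12956 and 5283 normalized counts in the control mice and 3701, 1498 and 3067 in the *MxCDX2* mice. The order of the mice was the same as for *Cd79a* in both groups. *Cd79b* fell by 1.71 on the log2 scale (SE 0.43, edgeR adjusted p = 0.0328), from 8985 ± 3844 to 2755 ± 1134.

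*Blnk* (ENSMUSG00000061132, chr19:40928927-40994535, minus strand), the adaptor downstream of both receptors, had 2560, 3829 and 1734 normalized counts in the control mice and 1126, 423 and 840 in the *MxCDX2* mice. The mice again stood in the same order and the groups did not overlap. Its mean went from 2708 ± 1055 to 796 ± 353, and its log2 fold change of −1.77 ± 0.42 had the lowest adjusted p of the 10 genes (edgeR adjusted p = 0.0284). *Il7r* (ENSMUSG00000003882, chr15:9505788-9530176, minus strand) had 3213, 2572 and 1382 normalized counts in the control mice and 872, 333 and 911 in the *MxCDX2* mice. Here control mouse 1 and *MxCDX2* mouse 3 were the highest of their groups, which was not the case for the signaling chains. *Il7r* fell by 1.76 on the log2 scale (SE 0.46, edgeR adjusted p = 0.0372), from 2389 ± 929 to 705 ± 323.

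These 4 calls stood close to the threshold. With the replicate number as a block, which pairs no mice by design, 0 of the 10 genes were called. The edgeR adjusted p of the 4 was then 0.0544 to 0.0709. With 1 mouse left out, the adjusted p of *Cd79a* exceeded 0.05 without control mouse 1 (0.104), control mouse 2 (0.116), *MxCDX2* mouse 2 (0.0755) or *MxCDX2* mouse 3 (0.144), with a log2 fold change between −2.58 and −1.61 over the 6 edgeR fits. *Cd79b* was likewise not called without control mouse 1 (edgeR adjusted p = 0.0702), control mouse 2 (0.0787), *MxCDX2* mouse 2 (0.0739) or *MxCDX2* mouse 3 (0.0967). For *Blnk* the corresponding values were 0.0607, 0.0704, 0.0585 and 0.0938. *Il7r* kept its call without control mouse 3 (edgeR adjusted p = 0.02) and was not called in the other 5 fits (between 0.0637 and 0.0955). In the 6 fits the number of the 10 genes called ran from 0 (without control mouse 1, control mouse 2 or *MxCDX2* mouse 2) to 7 (without the wild-type control), while each of the 10 log2 fold changes remained below 0.

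The surrogate light chain genes had lower means in *MxCDX2* mice without passing the test. *Vpreb1* (ENSMUSG00000059305, chr16:16868403-16870843, minus strand), which encodes the V-like part of the surrogate light chain, had 896, 1202 and 500 normalized counts in the control mice and 442, 111 and 353 in the *MxCDX2* mice. The groups did not overlap, although *MxCDX2* mouse 1 came close to the wild-type control. Its mean was 866 ± 352 in control and 302 ± 171 in the *MxCDX2* group, which gave a log2 fold change of −1.52 ± 0.54 (edgeR adjusted p = 0.0935). *Igll1* (ENSMUSG00000075370, chr16:16860671-16863985, minus strand), the λ5 gene that lies beside *Vpreb1*, had 1209, 1668 and 701 normalized counts in the control mice and 528, 131 and 407 in the *MxCDX2* mice. The 6 mice stood in the same order as for *Vpreb1*. The mean went from 1193 ± 484 to 355 ± 203, with a log2 fold change of −1.75 ± 0.54 (edgeR adjusted p = 0.0627). DESeq2, in which 10.9% of the genes with an adjusted p fell past both thresholds, called 6 of the 10 genes, namely the same 4 together with *Vpreb1* (DESeq2 adjusted p = 0.0201) and *Igll1* (DESeq2 adjusted p = 0.00553). In edgeR, *Igll1* also passed without the wild-type control (adjusted p = 0.0433).

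*Vpreb2*, the near-identical paralog of *Vpreb1*, had few counts, with 81.8, 97.3 and 67.5 normalized counts in the control mice and 32.8, 9.80 and 32.2 in the *MxCDX2* mice. It fell by 1.71 on the log2 scale (SE 0.49, edgeR adjusted p = 0.0490). In the annotated transcripts, 18.8% of the 50-base windows of *Vpreb1* also occur in *Vpreb2*, and 108 exon bases of *Vpreb1* (9.01%) lie opposite exons of *Top3b*, so the counts of *Vpreb1* and *Vpreb2* are less certain than those of *Igll1*.

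*Vpreb3* (ENSMUSG00000000903, chr10:75943057-75949657, plus strand), which encodes a VpreB-related protein of pre-B and immature B cells, had 3420, 4684 and 715 normalized counts in the control mice and 1407, 374 and 1026 in the *MxCDX2* mice. The wild-type control lay below *MxCDX2* mice 1 and 3, so the groups overlapped. It reached 17.6% of the mean of the other control mice, against 47.6% for *Vpreb1* and 48.7% for *Igll1*. The mean of *Vpreb3* was 2939 ± 2028 in control and 936 ± 522 in *MxCDX2* mice (log2 fold change −1.65 ± 0.73, edgeR adjusted p = 0.156). Without the wild-type control the log2 fold change was −2.10 and the test was passed (edgeR adjusted p = 0.0316).

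The recombinase genes varied widely among the control mice, *Rag1* the most of the 10 relative to its mean. *Rag1* (ENSMUSG00000061311, chr2:101638282-101649501, minus strand) had 5629, 10830 and 1009 normalized counts in the control mice and 3681, 735 and 2338 in the *MxCDX2* mice. The wild-type control, at 12.3% of the mean of the other controls, was below *MxCDX2* mice 1 and 3. Means of 5823 ± 4913 and 2251 ± 1475 gave a log2 fold change of −1.37 ± 0.87 (edgeR adjusted p = 0.308). *Rag2* (ENSMUSG00000032864, chr2:101624718-101632529, plus strand), the neighbouring gene transcribed in the opposite direction, had 434, 579 and 104 normalized counts in the control mice and 208, 59.8 and 154 in the *MxCDX2* mice. Its wild-type value was 20.5% of the mean of the other controls and again lay below *MxCDX2* mice 1 and 3. The log2 fold change was −1.41 ± 0.69 (edgeR adjusted p = 0.197), from 372 ± 243 to 140 ± 74.9.

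Without the wild-type control, *Rag2* passed the test (log2 fold change −1.84, edgeR adjusted p = 0.0435) and *Rag1* did not (−1.86, edgeR adjusted p = 0.0834). Without control mouse 2 the log2 fold change of *Rag1* was −0.56 (edgeR adjusted p = 0.708), so its size rests on that mouse more than on any other. In the annotation 208 exon bases of *Rag2* (6.07%) lie opposite exons of *B230118H07Rik* and 80 exon bases of *Rag1* (1.21%) are shared with it on the same strand.

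*Dntt* (ENSMUSG00000025014, chr19:41029275-41059525, plus strand) differed from the other 9 genes in which mice were high. It had 1947, 2264 and 2853 normalized counts in the control mice and 852, 404 and 2874 in the *MxCDX2* mice. The wild-type mouse was the highest control, at 136% of the mean of the other 2, and *MxCDX2* mouse 3 was level with it, whereas *MxCDX2* mice 1 and 2 lay below the control mice. The mean was 2355 ± 459 in control and 1377 ± 1316 in the *MxCDX2* group, which gave a log2 fold change of −0.77 ± 0.65 (edgeR adjusted p = 0.446). Without *MxCDX2* mouse 3 it was −1.90 and passed the test (edgeR adjusted p = 0.0364).

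Per kb of merged exons and scaled for depth (RPKM), the signaling chains were the most abundant of the 10 genes in control bone marrow, with RPKM levels of 138 ± 59.0 for *Cd79b* and 123 ± 51.0 for *Cd79a*. *Vpreb3* followed at 75.2 ± 51.9, and these 3 levels overlapped between mice. *Dntt* (22.6 ± 4.41), *Rag1* (19.4 ± 16.4), *Vpreb1* (15.9 ± 6.46), *Igll1* (12.1 ± 4.92), *Il7r* (11.3 ± 4.38) and *Blnk* (9.94 ± 3.87) formed a middle range in which neighbours did not differ beyond their spread. *Rag2* was the lowest of the 10 in each of the 6 mice, at an RPKM level of 2.39 ± 1.56 in control and 0.902 ± 0.481 in *MxCDX2* mice. In *MxCDX2* bone marrow the order of the top 3 was the same, with RPKM levels of 42.3 ± 17.4 for *Cd79b*, 30.7 ± 19.8 for *Cd79a* and 23.9 ± 13.4 for *Vpreb3*.

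The genes followed each other closely across the mice. Over the 6 mice, which include the group difference, Pearson's correlation of log2 normalized counts lay between 0.771 and 0.999 (median 0.94) for the 36 pairs without *Dntt*, and between 0.388 and 0.721 (median 0.66) for the 9 pairs with it. The pairs share libraries and depth, and the values are given as a description. *MxCDX2* mouse 2 was the lowest *MxCDX2* mouse for the 10 genes, with values at 21.7% (*Dntt*) to 44.3% (*Cd79b*) of the mean of *MxCDX2* mice 1 and 3. In the same library 14.1% of reads fell on no gene, against 9.22% to 11.3% in the others, and the part of this in the low values was not tested.

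To ask whether single genes moved apart from the B cell signal as a whole, each was set against the summed count of *Cd79a* and *Cd79b* within the same mouse. The log2 ratio of *Igll1* was −3.84 ± 0.03 in control and −3.82 ± 0.24 in *MxCDX2* mice, a difference of 0.02 (exact permutation test, two-sided, p = 1.0). That of *Blnk* was −2.64 ± 0.14 and −2.55 ± 0.13 (difference 0.10, exact permutation p = 0.40), and that of *Il7r* −2.84 ± 0.39 and −2.75 ± 0.28 (difference 0.09, exact permutation p = 0.80). For these 3 genes the difference was smaller than the SD between mice of at least 1 group, which does not show that the ratios were equal. *Vpreb1* had a log2 ratio of −4.30 ± 0.02 in control and −4.06 ± 0.26 in *MxCDX2* mice (exact permutation p = 0.40).

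The recombination genes and *Vpreb3* were compared with the signaling chains mouse by mouse. The log2 ratio of *Rag2* was −5.34, −5.38 and −6.56 in the control mice and −5.09, −5.23 and −5.03 in the *MxCDX2* mice, higher in the 3 *MxCDX2* mice by 0.64 on average (exact permutation p = 0.10, the smallest that 3 mice against 3 allow). Most of this difference lay in the wild-type control, without which it was 0.24. With *Cd79b* alone as the denominator the difference over the 6 mice was 0.45. For *Rag1* the log2 ratio was −1.64, −1.16 and −3.28 in the control mice and −0.94, −1.61 and −1.11 in the *MxCDX2* mice (difference 0.80, exact permutation p = 0.20), so that the wild-type mouse stood apart and the other 5 overlapped. *Vpreb3* showed the same picture, with −2.36, −2.36 and −3.78 in the control mice against −2.40 ± 0.16 in the *MxCDX2* mice (exact permutation p = 0.50). *Dntt* had a log2 ratio of −3.17, −3.41 and −1.78 in the control mice and −3.05, −2.48 and −0.81 in the *MxCDX2* mice (exact permutation p = 0.50), with the wild-type mouse and *MxCDX2* mouse 3 the highest of their groups. The lowest Benjamini-Hochberg adjusted p over the 8 exact permutation tests was 0.667. Since 3 mice against 3 allow no p below 0.10, these tests could not have called any ratio different at 0.05.

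**Figure D2:**
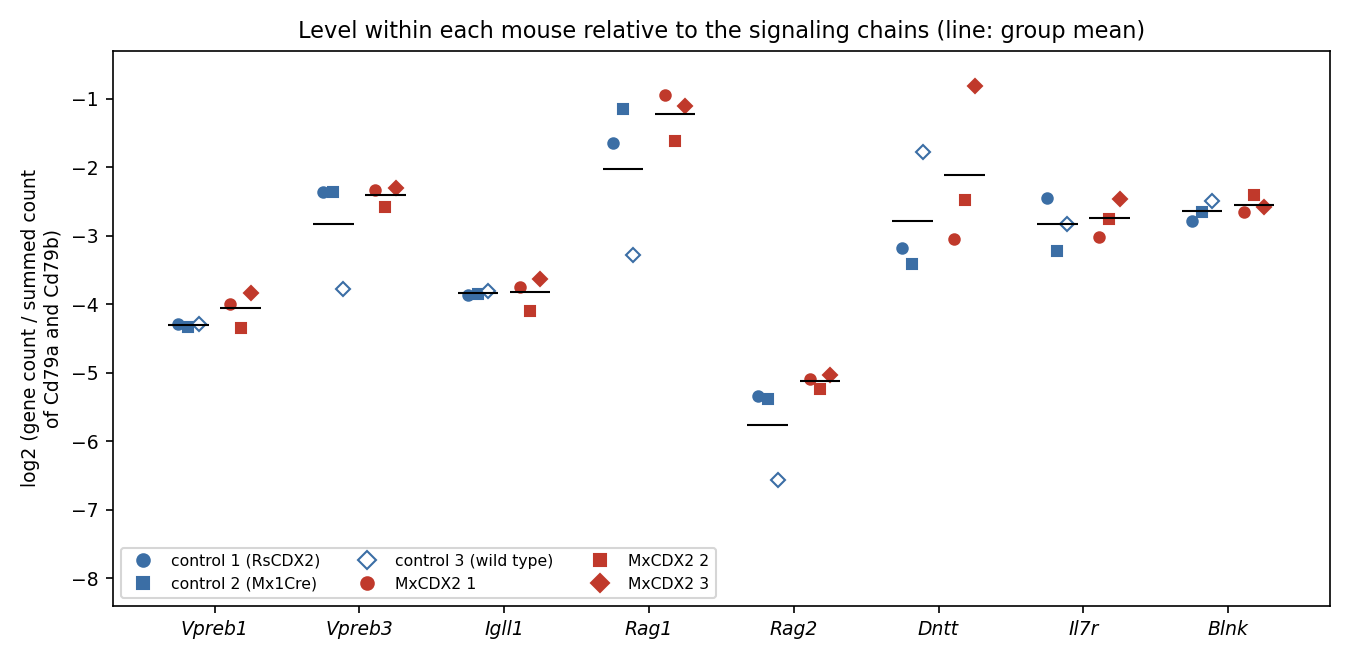
Log2 ratio of the count of each of 8 genes to the summed count of *Cd79a* and *Cd79b* in the same mouse, for 3 control (blue) and 3 *MxCDX2* (red) mice, with group means as lines. The control mice lie close together for *Vpreb1* and *Igll1*, whereas the wild-type control (open diamond) is set apart below for *Vpreb3*, *Rag1* and *Rag2* and above for *Dntt*.

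Pairs of related genes were compared in the same way, over 7 ratios. *Vpreb1* relative to *Igll1* gave log2 ratios of −0.43, −0.47 and −0.49 in the control mice and −0.26, −0.25 and −0.21 in the *MxCDX2* mice. The ratio was higher in the 3 *MxCDX2* mice, by 0.23 on average (exact permutation p = 0.10, adjusted over the 7 ratios 0.70). The counting error of a single ratio was 0.0544 to 0.184, which is larger than the SD of 0.03 between mice in either group, and the uncertainty of *Vpreb1* counts given above applies here as well. *Rag1* relative to *Rag2* was 3.70, 4.23 and 3.28 in the control mice and 4.15, 3.62 and 3.92 in the *MxCDX2* mice (exact permutation p = 0.70), so the recombinase genes kept overlapping ratios. *Dntt* relative to *Rag1* ranged from −2.26 to 1.499 in the control mice and from −2.11 to 0.30 in the *MxCDX2* mice (exact permutation p = 1.0), the widest span of the 7 ratios within either group. The remaining 4 ratios gave exact permutation p-values of 0.30 to 1.0. Among them, *Cd79a* relative to *Cd79b* was 0.02, −0.21 and −0.23 in the control mice and −0.13, −0.999 and −0.63 in the *MxCDX2* mice, so that *MxCDX2* mice 2 and 3 had less *Cd79a* per *Cd79b* than the control mice.

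**Figure D3:**
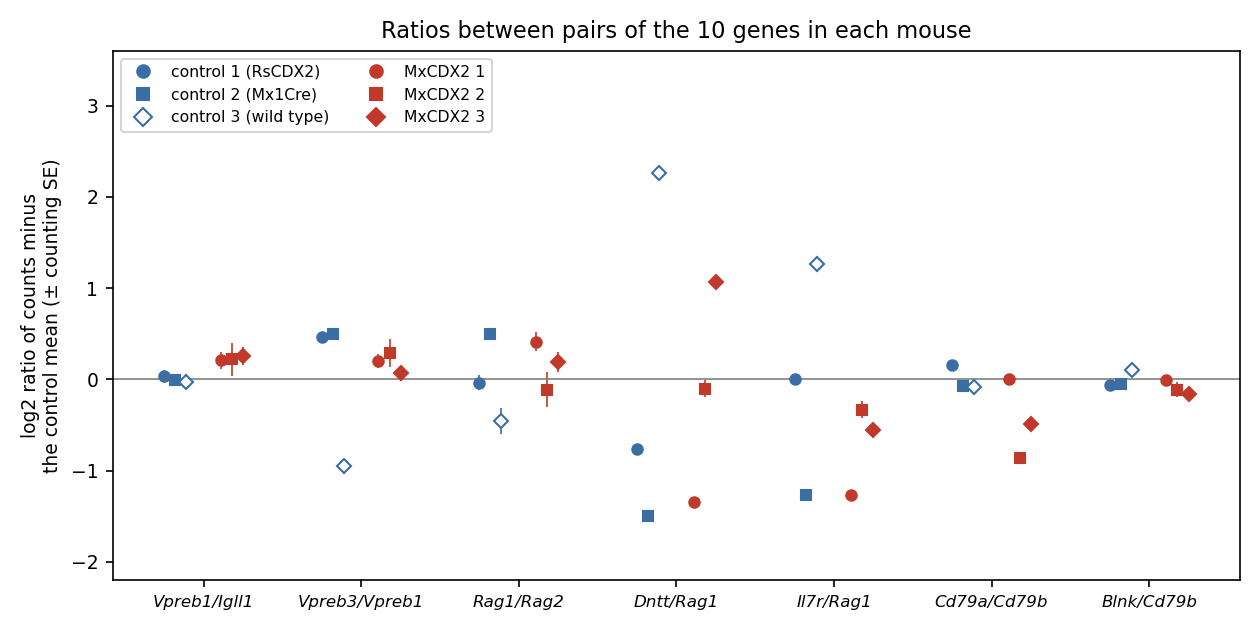
Log2 ratio of counts for 7 pairs of the genes in each mouse, minus the mean of the 3 control mice, with the counting standard error as bars (blue, control; red, *MxCDX2*). The *Vpreb1*/*Igll1* ratio is above the control mice in the 3 *MxCDX2* mice, by 0.23 on average, and the *Dntt*/*Rag1* ratio has the widest span.

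Genes that work with the 10 were read from lists of the same pathways. Of 17 other genes of pre-B receptor signaling, 6 fell, none rose and 11 did not pass the test, with a median log2 fold change of −0.30. They included *Bank1*, a scaffold of B cell receptor signaling (log2 fold change −2.32, edgeR adjusted p = 0.00272), and *Blk*, a Src-family kinase of B cells (−2.06, 0.0342). *Ighm*, the μ heavy chain that pairs with the surrogate light chain, had 54062, 83970 and 27917 normalized counts in the control mice and 29384, 34499 and 31559 in the *MxCDX2* mice. The wild-type control was below the *MxCDX2* mice for *Ighm*, and the log2 fold change of −0.80 did not pass the test (edgeR adjusted p = 0.176). *Syk* and *Btk*, the kinases that act on and after CD79A and CD79B and are used by myeloid cells too, had log2 fold changes of −0.56 (edgeR adjusted p = 0.128) and 0.14 (0.486), and were named after their values were seen. So were the others that did not pass both thresholds. *Pik3cd* (0.58, edgeR adjusted p = 0.0462), *Ptpn6* (0.46), *Inpp5d* (0.27), *Lyn* (0.27), *Grb2* (0.21) and *Plcg2* (0.19) were above 0. *Cblb* (−0.30) and *Pik3ap1* (−0.04) were below it. The count for this list was 3 without control mouse 1, without control mouse 2, without *MxCDX2* mouse 2 or without *MxCDX2* mouse 3.

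Partners of *Rag1*, *Rag2* and *Il7r* were read in the same way. Among 14 genes of V(D)J cutting and end joining, 1 fell and 13 did not pass the test (median log2 fold change −0.15), beside the 9.03% of all genes that fell. The gene that fell was *Xrcc5*, which encodes the Ku80 subunit that binds broken DNA ends, with 587, 626 and 833 normalized counts in the control mice and 167, 117 and 189 in the *MxCDX2* mice (log2 fold change −2.11, edgeR adjusted p = 0.00345). In contrast to *Rag1*, its wild-type value was the highest of the control mice and the groups were far apart. None of the 12 genes of interleukin 7 receptor signaling passed both thresholds in edgeR or DESeq2 (median log2 fold change 0.12), and 2 of them had an unadjusted edgeR p under 0.05. These went in opposite directions. *Jak1*, the kinase bound to the *Il7r* product, had a log2 fold change of −0.38 (edgeR adjusted p = 0.0389), and *Stat5b* had 0.28 (edgeR adjusted p = 0.0828). *Il2rg*, the chain that pairs with the *Il7r* product, had −0.41 (edgeR adjusted p = 0.224). *Jak1*, *Stat5b* and *Il2rg* were named after their values were seen.

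Transcription factors of early B cells included 4 that fell and 11 that did not pass among 15, with a median log2 fold change of −1.43. *Spib*, an ETS factor of B cells and plasmacytoid dendritic cells, fell by 1.98 on the log2 scale (edgeR adjusted p = 0.0315). *Bcl11a*, a zinc finger factor needed for early B cells, fell by 1.79 (edgeR adjusted p = 0.00212), and *Ikzf3*, which encodes Aiolos, fell by 1.55 (edgeR adjusted p = 0.0419). *Ebf1*, which is required for B cell specification, had 2082, 3152 and 957 normalized counts in the control mice and 951, 282 and 669 in the *MxCDX2* mice. *Pax5*, which maintains B cell identity, had 1753, 2438 and 728 in the control mice and 646, 213 and 510 in the *MxCDX2* mice. Both showed the mouse order of *Cd79b*, with the wild-type control the lowest control and *MxCDX2* mouse 2 the lowest of all. Neither passed the test in edgeR (adjusted p = 0.0723 and 0.0544), whereas DESeq2 called both (DESeq2 adjusted p = 0.00862 and 0.00318). The count of factors called was 8 in DESeq2, 9 without the wild-type control, and 1 without control mouse 2, *MxCDX2* mouse 2 or *MxCDX2* mouse 3 (2 without control mouse 1).

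Markers of B cell stages were read as well. Of 9 mature B markers tested, 6 fell and none rose (median log2 fold change −2.41), led by the complement receptor *Cr2* (−2.86, edgeR adjusted p = 0.00710), *Fcrl1* (−2.77, 0.00676) and the IgE receptor *Fcer2a* (−2.75, 0.00578). Of 10 pro-B and pre-B markers, 3 fell, 1 rose and 6 did not pass (median −1.16), and those that fell included *Bst1* (−2.19, edgeR adjusted p = 0.00412) and *Cd24a* (−1.49, 0.00343). The part of cells outside the B lineage in the values of *Bst1* and *Cd24a* was not tested. The gene that rose was *Cd93* (1.38, edgeR adjusted p = 0.0115), a marker of early B cells that myeloid cells and progenitors also carry, named after its value was seen. Of 8 markers of early lymphoid progenitors, *Satb1* fell (log2 fold change −1.40, edgeR adjusted p = 0.00663), none rose and 7 did not pass (median −0.24). Without the wild-type control, 6 of the pro-B and pre-B markers and 2 of the early lymphoid progenitor markers fell. The medians of these lists were not tested against each other.

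**Figure D4:**
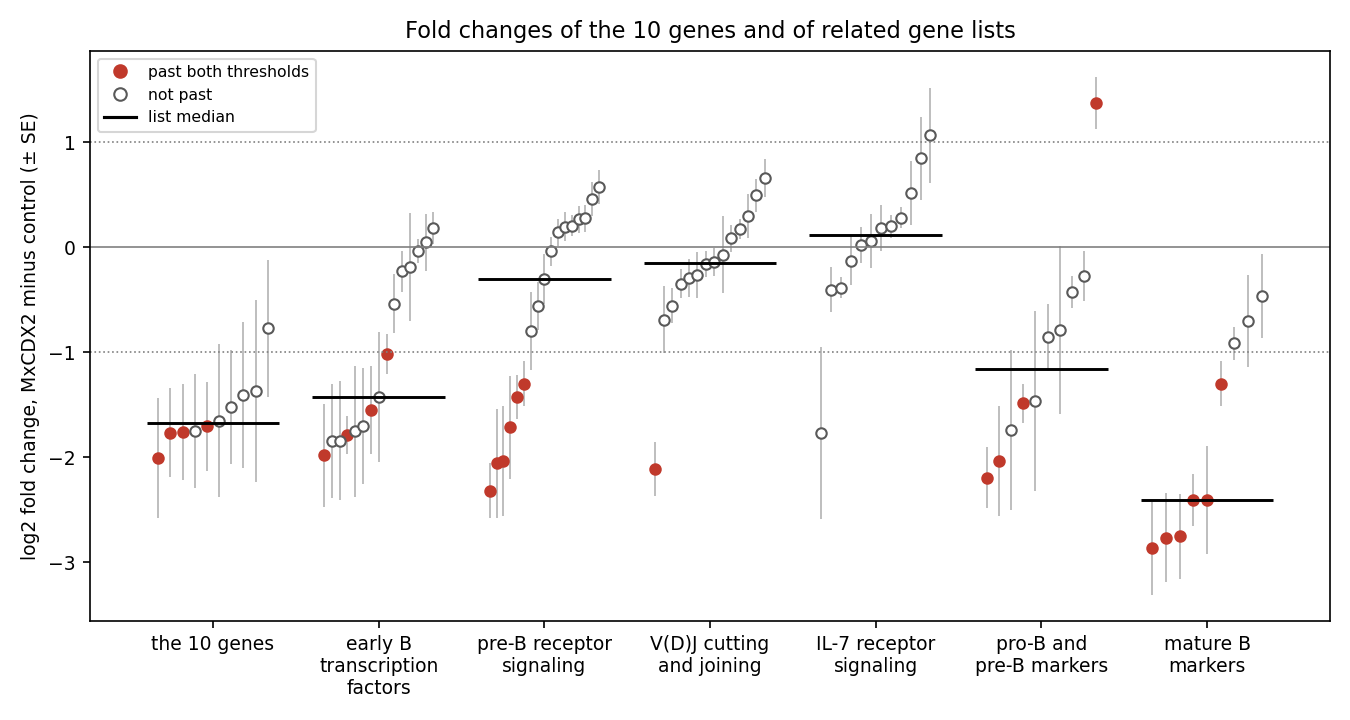
Log2 fold change (*MxCDX2* minus control, ± SE) of the 10 genes and of the members of 6 related lists, 1 point per gene, filled where both thresholds were passed, with the list median as a black line and dotted lines at a log2 fold change of −1 and 1. The median of the 10 genes (−1.68) lies between those of the mature B markers (−2.41) and of the early B transcription factors (−1.43), and the V(D)J partners (−0.15) and interleukin 7 receptor signaling genes (0.12) lie near 0.

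Of the 10 genes, 4 are shared with T cell progenitors, so markers of other lymphoid cells were read beside them. Of 14 T cell markers tested, 1 fell, 1 rose and 12 did not pass, and the summed level of the 15 on the list was 6607 to 18382 normalized counts in the control mice and 10244 to 11411 in the *MxCDX2* mice. *Cd28* made up much of the latter, with 272, 217 and 528 normalized counts in the control mice and 4675, 8828 and 5601 in the *MxCDX2* mice (log2 fold change 4.23, edgeR adjusted p = 0.00214). Without it the sums were 6334 to 17854 and 2583 to 5569. *Cd4*, the co-receptor of helper T cells, which other blood cells can also carry, had 1701, 1093 and 4068 normalized counts in the control mice and 352, 272 and 473 in the *MxCDX2* mice, and was the marker that fell (log2 fold change −2.64, edgeR adjusted p = 0.0142), although 0 of the list fell without *MxCDX2* mouse 2. *Cd3d*, a defining T cell marker, had 814, 671 and 729 normalized counts in the control mice and 409, 475 and 191 in the *MxCDX2* mice, which did not overlap and did not pass the test (log2 fold change −1.04, edgeR adjusted p = 0.0707). Its partner *Cd3e* had 262, 260 and 475 normalized counts in the control mice and 313, 160 and 157 in the *MxCDX2* mice, and *Ptcra*, which marks T cell progenitors, had 0, 1 and 4 reads in the control mice and 0 in each *MxCDX2* mouse. These last 3 were chosen after their values were seen. The part of T lineage cells in the values of *Rag1*, *Rag2*, *Dntt* and *Il7r* was not tested.

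Among plasmacytoid dendritic cell markers, a cell type that can also carry *Dntt* and *Rag* transcripts, 3 of 7 fell and 4 did not pass, with a summed level of 17231 to 36227 normalized counts in the control mice and 15483 to 18694 in the *MxCDX2* mice. Those that fell were *Pacsin1* (log2 fold change −2.36, edgeR adjusted p = 0.0426), *Siglech* (−2.197, 0.0230) and *Ly6d*, which early B cells also carry (−2.04, 0.0332). The 4 that did not pass, named after their values were seen, did not move alike. *Ccr9* (−1.97, edgeR adjusted p = 0.0552), *Bst2* (−0.32, 0.661) and *Irf7* (−0.04, 0.946) were below 0, and *Tcf4* went the other way (0.82, 0.0978). Of this list, 0 genes fell without *MxCDX2* mouse 3, 1 without *MxCDX2* mouse 1 or *MxCDX2* mouse 2, and 2 without control mouse 1 or control mouse 2. *Siglech* had 3541, 2449 and 9160 normalized counts in the control mice and 1254, 1180 and 871 in the *MxCDX2* mice, highest in the wild-type mouse as *Dntt* was. *MxCDX2* mouse 3, where *Dntt* was high, had the lowest *Siglech* of the 6. The part of these cells in the values of *Dntt*, *Rag1* and *Rag2* was not tested.

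The genes whose profile over the 6 mice was most like the mean profile of the 10, by Pearson's correlation among the 11972 genes whose mean reached 100 normalized counts, were ENSMUSG00000099065 (0.9965), *Cplx2* (0.9961), *Ppm1d* (0.9956), *Ccne2* (0.9947) and *Pax5* (0.9932). They shared with most of the 10 genes the low value in *MxCDX2* mouse 2 and the low value of the wild-type mouse among controls. *Cplx2*, for example, had 1770, 2135 and 825 normalized counts in the control mice and 702, 269 and 628 in the *MxCDX2* mice. Their log2 fold changes lay between −1.90 and −0.44, and none passed the thresholds (edgeR adjusted p between 0.0539 and 0.144).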

How the data were processed

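Stranded mRNA libraries (TruSeq) were made from total bone marrow RNA of 3 *MxCDX2* and 3 control mice. According to the methods and the submitters' processing notes, reads were converted with bcl2fastq (2.17.1.14), aligned to GRCm38 with STAR (2.5) and counted per gene with HTSeq (0.6.1), and the authors deposited raw read counts per gene for each mouse. HTSeq's strand setting is not given in the sources used here, and rows that name no gene (12.2% to 17.1% of reads) were left out. Groups came from the labels, and nothing shows that the 6 libraries are other than 1 per mouse.

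Gene symbols and coordinates came from GENCODE M21 (37607 of 39179 identifiers matched). Genes passing filterByExpr (15980) were tested with edgeR 4.0.16 in R 4.3.3 (TMM, glmQLFit, glmQLFTest, Benjamini-Hochberg adjustment), as *MxCDX2* against control. A pseudocount of 1 was used for log2 correlations. Ratios of counts were compared with exact two-sided permutation tests of 3 mice against 3, whose smallest p is 0.10. DESeq2 1.42.0, voom (limma 3.58.1), other normalizations, filters and thresholds, the replicate number as a block and each mouse left out in turn were alternatives. The edgeR and DESeq2 fits were tested on simulated data, and the other steps were not. Promoters came from RefSeq (GRCm38.p6). Python 3.11.15, pandas 2.3.3, numpy 2.4.6, scipy 1.17.1 and matplotlib 3.10.9 served for the rest.

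The 10 genes and the gene lists were chosen with earlier results of these data known. Named were the 10 genes, *Cdx2*, *Vpreb2*, *Ighm*, *Ebf1*, *Pax5*, the 5 genes most alike in profile, and per list at most 3 genes with the largest change past both thresholds, without overlap between groups and whose mean reached 100 normalized counts. Some genes that this rule names are not reported here. Further genes are marked as named after their values were seen. With these depths the spread between mice limits the precision for well expressed genes.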

Additional observations from a re-analysis of the deposited data

How the results depend on the processing

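The direction of the 10 genes did not depend on the processing: the 150 log2 fold changes recomputed for them were below 0. The calls did. Against 2177 genes and 4 of the 10 past the thresholds, an adjusted p below 0.01 left 1043 genes and 0 of the 10, and testing against a log2 fold change of 1 (glmTreat) left 611 and 0. With each mouse left out in turn, 1205 to 2406 genes and 0 to 7 of the 10 were called. DESeq2 called 6 of the 10, and every gene with at least 1 count gave 5, whereas voom, other size factors, upper quartile, total counts alone, dropping the 10 most abundant genes and 10 counts in every sample gave the same 4. Total counts alone moved the median of all genes from 0.00208 to 0.118. Under the replicate block 2205 genes and 0 of the 10 were called (adjusted p = 0.0544 to 0.0709 for the 4). Control numbers were given in accession order and pair nothing by design, although each mouse deviated most like the one of its own number (correlations of 0.163, 0.287 and 0.179, against −0.333 to 0.114 for other pairs).

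DESeq2 called 8 early B transcription factors (against 4), 4 T cell markers (against 2) and 2 early lymphoid progenitor markers (against 1). Leaving out each mouse, an alternative added after the values were seen, gave 3 to 6 calls for pre-B receptor signaling, 0 to 1 for interleukin 7 receptor signaling, 1 to 9 for early B transcription factors, 3 to 7 for pro-B and pre-B markers, 1 to 2 for plasma cell and T cell markers, 0 to 3 for NK and innate lymphoid markers, 0 to 4 for plasmacytoid dendritic cell markers, 1 to 3 for early lymphoid progenitor markers, 2 to 6 for neutrophil markers and 5 to 8 for erythroid markers.

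With *Cd79b* alone as the denominator, the differences in log2 ratio changed sign for *Igll1* (−0.17), *Il7r* (−0.10) and *Blnk* (−0.092). That of *Rag2* was then 0.45 (exact permutation p = 0.40). With *Cd79a* alone the exact permutation p was 0.10 for *Rag2* (0.90), *Rag1* (1.07), *Vpreb1* (0.51) and *Igll1* (0.28). It was 0.20 to 0.40 for *Vpreb3*, *Dntt*, *Il7r* and *Blnk*. With each mouse left out, the difference relative to *Cd79a* plus *Cd79b* ran from −0.042 to 0.67 for *Vpreb3*, from −0.081 to 0.15 for *Igll1* and from −0.11 to 0.28 for *Il7r*, that of *Vpreb3* to *Vpreb1* from −0.29 to 0.43, that of *Rag1* to *Rag2* from −0.063 to 0.41 and that of *Dntt* to *Rag1* from −0.88 to 1.00. The causes were not tested.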

Other observations

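Outside the B lineage the lists of other cell types moved in both directions. The 8 erythroid markers fell, among them *Hba-a1* (log2 fold change −4.24, edgeR adjusted p = 0.00306), *Hbb-bs* (−4.19, 0.00453) and *Alas2* (−3.96, 0.00343), the erythroid enzyme that opens heme synthesis. Globin genes have near-identical copies, so reads may be split between them. Of 8 neutrophil markers, 5 fell and none rose, led by *Mmp8* (−2.12, edgeR adjusted p = 0.00283), *Ly6g* (−1.88, 0.00166) and *Ltf* (−1.81, 0.00749). Those that did not pass, named after their values were seen, were *Camp* (−1.18, edgeR adjusted p = 0.0572), *Elane* (−0.31, 0.770) and *Mpo* (0.31, 0.725). Of 8 monocyte and macrophage markers, 3 rose and none fell, namely *Ccr2* (2.75, edgeR adjusted p = 0.00312), *Csf1r* (2.08, 0.00196) and *Ly6c2* (2.06, 0.00268). The summed level of all 8 monocyte and macrophage markers was 75878 to 116513 normalized counts in the control mice and 203884 to 238137 in the *MxCDX2* mice. Of 8 NK and innate lymphoid markers, 2 fell, *Il1rl1* (−2.50, edgeR adjusted p = 0.0304) and *Klrb1c* (−1.60, 0.0375). Of 7 plasma cell markers 1 rose, *Sdc1* (1.41, edgeR adjusted p = 0.00939), and none fell, with a median log2 fold change of −0.53. The others, named after their values were seen, went both ways without passing both thresholds. *Mzb1* (−0.91), *Tnfrsf17* (−0.65), *Derl3* (−0.55) and *Jchain* (−0.53) were below 0, and *Xbp1* (0.88) and *Prdm1* (0.28) were above it.

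Single genes on the list of pro-B and pre-B markers followed different members of the 10, and were picked after their values were seen. *Arpp21* had 193, 188 and 413 normalized counts in the control mice and 66.7, 44.1 and 349 in the *MxCDX2* mice, with the wild-type mouse and *MxCDX2* mouse 3 the highest, as for *Dntt*. *Myl4* had 1283, 1767 and 155 in the control mice and 589, 151 and 420 in the *MxCDX2* mice. *Akap12* had 5109, 5306 and 845 in the control mice and 1758, 415 and 1197 in the *MxCDX2* mice. In both the wild-type mouse lay below *MxCDX2* mice 1 and 3, as it did for *Rag1*, *Rag2* and *Vpreb3*. None of the 3 passed both thresholds in edgeR (adjusted p = 0.533, 0.269 and 0.153).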
